A study of Mus musculus with 4 samples.

Results

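The HOX genes of the mouse were followed through the colonic mucosa of Itch knockout and wild-type animals. Every gene whose symbol was Hoxa, Hoxb, Hoxc or Hoxd with a number was taken, which gave 34 of the 19308 genes listed in all 4 deposited count files. They comprised 11 genes of the HOXA cluster, 9 of HOXB, 7 of HOXC and 7 of HOXD. Within the family, membership was set by names alone, but the family was chosen with earlier results of these data known. GENCODE M21 annotates 39 protein-coding HOX genes on GRCm38, and the 5 that are not in the shorter gene list are Hoxb1, Hoxc11, Hoxc12, Hoxd1 and Hoxd4.

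Total RNA from the mucosa was sequenced as 1 library per sample, with 2 libraries of each genotype. The Itch KO group carried the label Itch KO and its mucosa was described as inflamed. Itch encodes an E3 ubiquitin ligase of the HECT type, and these animals lack it (Itch-/-). The WT group was labelled C57BL/6, while the strain of the knockout animals, their age and sex and the segment of colon sampled are not stated in the labels. All 4 samples bear the state label of inflammation, although the protocol applies that word to the knockout mucosa. Whether the replicates are separate animals is not stated, and each p-value here reflects the spread among 4 libraries, which may be technical. In bulk mucosa, fewer cells of a type and less RNA per cell cannot be told apart.

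HOX genes encode homeodomain transcription factors that give cells their position along the body axis. They lie in clusters in which the order of the genes mirrors their order of use, so that genes with low paralog numbers act towards the head and those with high numbers towards the tail, and genes with the same number in different clusters are paralogs. In the gut this order persists in the adult, and the paralogs with the highest numbers are known as genes of the hindgut, its sphincter and the urogenital tract.

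On GRCm38 the HOXA members described here lie on chromosome 6 between 52162417 (Hoxa2) and 52260880 (Hoxa13), on the minus strand. The HOXB members lie on chromosome 11 between 96194316 (Hoxb13) and 96354012 (Hoxb2), the HOXC members on chromosome 15 between 102921103 (Hoxc13) and 103036852 (Hoxc4), and the HOXD members on chromosome 2 between 74668310 (Hoxd13) and 74748442 (Hoxd3), all on the plus strand. All 34 are annotated as protein-coding genes.

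RefSeq promoter windows on GRCm38.p6, running from 250 bases before to 50 after a gene's start, were available for 19 of the 34 members as 21 windows. Those of Hoxa13 (chr6:52260831-52261130, minus strand), Hoxd13 (chr2:74667975-74668274, plus strand), Hoxb8 (chr11:96281655-96281954, plus strand) and Hoxd3 (chr2:74711743-74712042, plus strand) are shown 5′ to 3′, because the first pair belongs to genes that were high in WT replicate 1 and the second pair to genes that were high in WT replicate 2. Capitals mark every match, on either strand, to TTTATNG (a motif of CDX factors), CAATAAA (a motif of CDX and posterior HOX factors) or TATAAA (the TATA box).
Hoxa13: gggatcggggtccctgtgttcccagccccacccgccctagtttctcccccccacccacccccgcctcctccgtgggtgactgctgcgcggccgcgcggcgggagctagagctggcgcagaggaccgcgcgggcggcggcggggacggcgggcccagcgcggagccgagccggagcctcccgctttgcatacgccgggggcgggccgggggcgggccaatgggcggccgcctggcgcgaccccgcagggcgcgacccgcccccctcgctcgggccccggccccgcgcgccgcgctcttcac
Hoxd13: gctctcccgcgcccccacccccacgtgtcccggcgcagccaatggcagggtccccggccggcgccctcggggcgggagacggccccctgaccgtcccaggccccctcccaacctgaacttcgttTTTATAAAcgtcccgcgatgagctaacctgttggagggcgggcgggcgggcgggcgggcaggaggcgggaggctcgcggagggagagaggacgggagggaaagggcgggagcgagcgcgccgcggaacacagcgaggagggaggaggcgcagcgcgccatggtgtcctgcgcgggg
Hoxb8: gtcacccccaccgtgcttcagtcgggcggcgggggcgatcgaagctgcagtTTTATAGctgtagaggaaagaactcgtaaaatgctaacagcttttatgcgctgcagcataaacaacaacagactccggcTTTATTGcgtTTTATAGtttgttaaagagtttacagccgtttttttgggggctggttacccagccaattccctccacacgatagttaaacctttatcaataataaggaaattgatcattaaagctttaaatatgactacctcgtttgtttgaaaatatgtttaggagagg
Hoxd3: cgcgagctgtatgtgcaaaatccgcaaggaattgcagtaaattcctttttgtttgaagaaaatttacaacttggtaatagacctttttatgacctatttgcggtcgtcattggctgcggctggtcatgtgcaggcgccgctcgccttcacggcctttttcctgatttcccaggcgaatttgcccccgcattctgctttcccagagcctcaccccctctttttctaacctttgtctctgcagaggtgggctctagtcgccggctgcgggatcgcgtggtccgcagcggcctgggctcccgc
The window of Hoxa13 held 45 CpG dinucleotides and that of Hoxd13 37, against 13 for Hoxb8 and 20 for Hoxd3, and the median was 15 over the members' windows and 7 over all 32851 windows. Hoxb8 alone among the 19 members had a match to TTTATNG, with 3 matches, while 10.9% of all windows held at least 1. The central one of its 3 matches, TTTATTG, is also the reverse complement of CAATAAA, which 4.60% of all windows held, and the outer 2 contain TATAAA on the opposite strand. TATAAA occurred in Hoxa10, Hoxb8 and Hoxd13 among the members and in 13.6% of all windows, and CCAAT in 12 of the 19 members and in 37.4% of all windows. TGATNNAT, the composite motif of PBX and HOX proteins, occurred in Hoxa2, Hoxb8 and Hoxd11 and in 8.85% of all windows. A match to these letters is a description of the window and not a binding site.

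The libraries held 8181193 and 9463759 counts in the genes common to all files for Itch KO replicates 1 and 2, and 9674531 and 12199709 for WT replicates 1 and 2. At these depths 3 counts correspond to 0.244 to 0.369 CPM, where CPM is the library-scaled count, normalized by the trimmed mean of M values (TMM). Itch itself checked the labels, with 11.9 and 13.4 CPM in the knockout libraries against 204 and 183 CPM in the WT libraries. Its log2 fold change was -3.93, with an adjusted p of 0.0922 by edgeR's quasi-likelihood test. Counts per kb of exon reached at most 2351 to 2807 in a library for any gene, and the densest HOX gene of a library stood at 272 to 607, below that ceiling. Exon bases of 11 members are shared with another listed gene, over 20% of them in Hoxa7, Hoxa11, Hoxb2 and Hoxb3, whose partners are antisense RNAs, and their counts are uncertain to that extent. HOX counts summed to 750.4 and 684 CPM in the Itch KO libraries and to 1178 and 954 CPM in the WT libraries.

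The WT libraries differed from each other in HOX genes by more than they did in most genes. Posterior genes of the HOXA, HOXB and HOXD clusters were high in WT replicate 1, and HOXB genes 3 to 8 with Hoxd3 were high in WT replicate 2. Over the 33 members with at least 10 counts in the WT libraries together, the median absolute log2 ratio between them was 1.90. Over all 17995 genes with as many counts it was 0.29, and its 90th percentile was 1.61. At least 4-fold higher in WT replicate 1 were 6 members (Hoxa6, Hoxa13, Hoxb13, Hoxd11, Hoxd12 and Hoxd13), beside 3.83% of all genes. At least 4-fold higher in WT replicate 2 were 9 members (Hoxb3 to Hoxb8, Hoxc4, Hoxc9 and Hoxd3), beside 3.65% of all genes. As each side is 1 library, the ratios carry 95% exact (Clopper-Pearson) intervals that cover counting error only, and reads without molecular identifiers are not independent molecules.

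**Figure D1:**
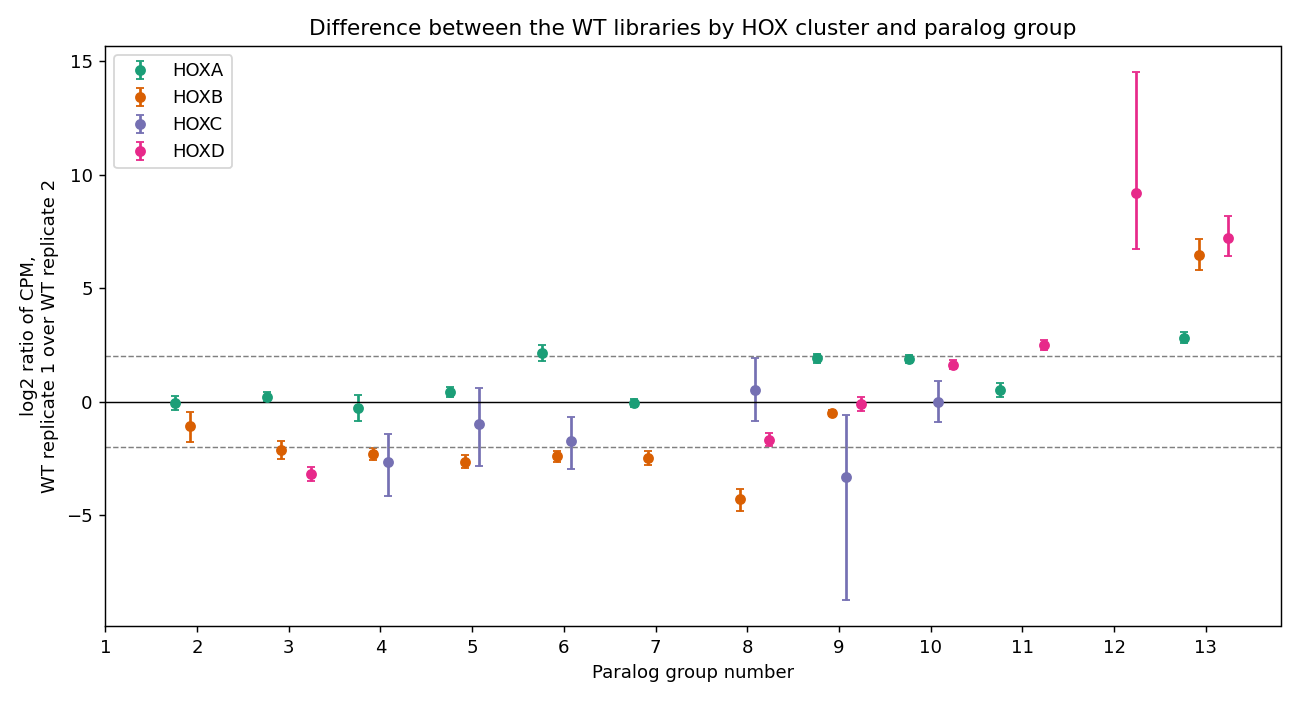
The log2 ratio of CPM in WT replicate 1 over WT replicate 2 is plotted against paralog group number for 32 HOX genes, coloured by cluster, with 95% exact counting intervals; dashed lines mark 4-fold. HOXB genes 2 to 9 lie below 0, all genes of paralog groups 11 to 13 lie above it, and HOXA genes 2 to 5 and 7 lie close to it.

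Hoxd13 and its neighbours showed the widest spread. Hoxd13, a regulator of hindgut, genital and digit development, stood at 147 CPM in WT replicate 1 and 0.978 CPM in WT replicate 2, a 150.3-fold ratio (interval 85.8 to 292). Hoxd12, which acts with Hoxd13 in the mouse anal sphincter, had 449 counts in WT replicate 1 and 1 count in WT replicate 2, a ratio of 588 (interval 105 to 23268). Both were high in the same library, and in the other they were left with 12 counts and 1 count. Hoxd11 stood at 95.4 and 17.1 CPM, 5.57-fold apart (4.79 to 6.51), and Hoxd10, known from hindlimb motor neurons, at 72.1 and 23.4 CPM, 3.08-fold apart (2.68 to 3.55). Hoxd9 did not follow them, with 17.0 and 18.1 CPM and an interval of the ratio that included 1 (0.760 to 1.16). Further along the cluster the direction turned: Hoxd8 was 3.17-fold higher in WT replicate 2 (2.60 to 3.88) and Hoxd3, which patterns the first neck vertebrae in mouse, 9.02-fold higher (7.31 to 11.2), at 10.1 CPM in WT replicate 1 and 91.4 CPM in WT replicate 2. The 7 HOXD ratios were thus ordered almost as the paralog numbers, with a Spearman rank correlation of 0.96, which describes 7 genes of the same libraries.

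The HOXB cluster split at its isolated last member. Hoxb13, a gene of the distal gut and prostate that lies apart from the rest of its cluster, stood at 143 CPM in WT replicate 1 and 1.63 CPM in WT replicate 2, 87.7-fold apart (56.6 to 144). All 8 others were higher in WT replicate 2. Hoxb8, studied in mouse for its part in myeloid cells and grooming, stood at 4.37 CPM in WT replicate 1 and 86.2 CPM in WT replicate 2, 19.7-fold higher in replicate 2 (14.4 to 27.6). Hoxb3, Hoxb4, Hoxb5, Hoxb6 and Hoxb7 were 4.31-fold to 6.20-fold higher there, and Hoxb5, which acts on Ret in mouse enteric neuron precursors, stood at 12.7 and 78.7 CPM in WT replicates 1 and 2. Hoxb9 at 77.0 and 109 CPM (1.42-fold, 1.30 to 1.56) and Hoxb2 at 2.88 and 6.11 CPM (2.12-fold, 1.35 to 3.43) differed least. The rank correlation of the ratio with paralog number was 0.12 over these 9 genes.

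In the HOXA cluster the genes with low numbers were close in level in the WT libraries. Hoxa2, Hoxa4 and Hoxa7 had intervals of the ratio that included 1, and Hoxa3 (35.1 and 29.9 CPM) and Hoxa5 (38.4 and 28.6 CPM) were 1.17-fold and 1.34-fold higher in WT replicate 1. Hoxa9, Hoxa10 and Hoxa13 were all higher in WT replicate 1. Hoxa9, a gene of blood progenitors, stood at 90.6 and 23.96 CPM (3.78-fold, 3.31 to 4.33), and Hoxa10, required in the uterus, at 102 and 27.5 CPM (3.72-fold, 3.28 to 4.23). Hoxa13, the gene of hand-foot-genital syndrome in humans, stood at 88.0 and 12.4 CPM (7.11-fold, 5.97 to 8.50). Hoxa11, between them, was 1.44-fold higher in WT replicate 1 (1.16 to 1.78), and 35.0% of its exon bases are shared with the antisense gene Hoxa11os. Hoxa6 broke the order, with 32.9 CPM in WT replicate 1 and 7.50 CPM in WT replicate 2 (4.38-fold, 3.46 to 5.59) between neighbours that differed little. The rank correlation of the ratio with paralog number was 0.72 over 11 genes.

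HOXC genes were scarce in all libraries, with summed levels of 0.860 and 2.89 CPM in Itch KO and 5.76 and 12.2 CPM in WT. Hoxc4, the gene at the anterior end, stood at 0.640 CPM in WT replicate 1 and 3.99 CPM in WT replicate 2, 6.24-fold higher in replicate 2 (2.67 to 17.8). Hoxc6 had 9 and 39 counts (3.31-fold higher in WT replicate 2, 1.58 to 7.77), and Hoxc9 1 and 13 counts (9.93-fold, 1.49 to 422). For Hoxc5, Hoxc8 and Hoxc10 the intervals included 1, so that no difference between the WT libraries was detectable at this depth. Hoxc13 had 2 counts in WT replicate 1 and 0 in the other 3 libraries.

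**Figure D2:**
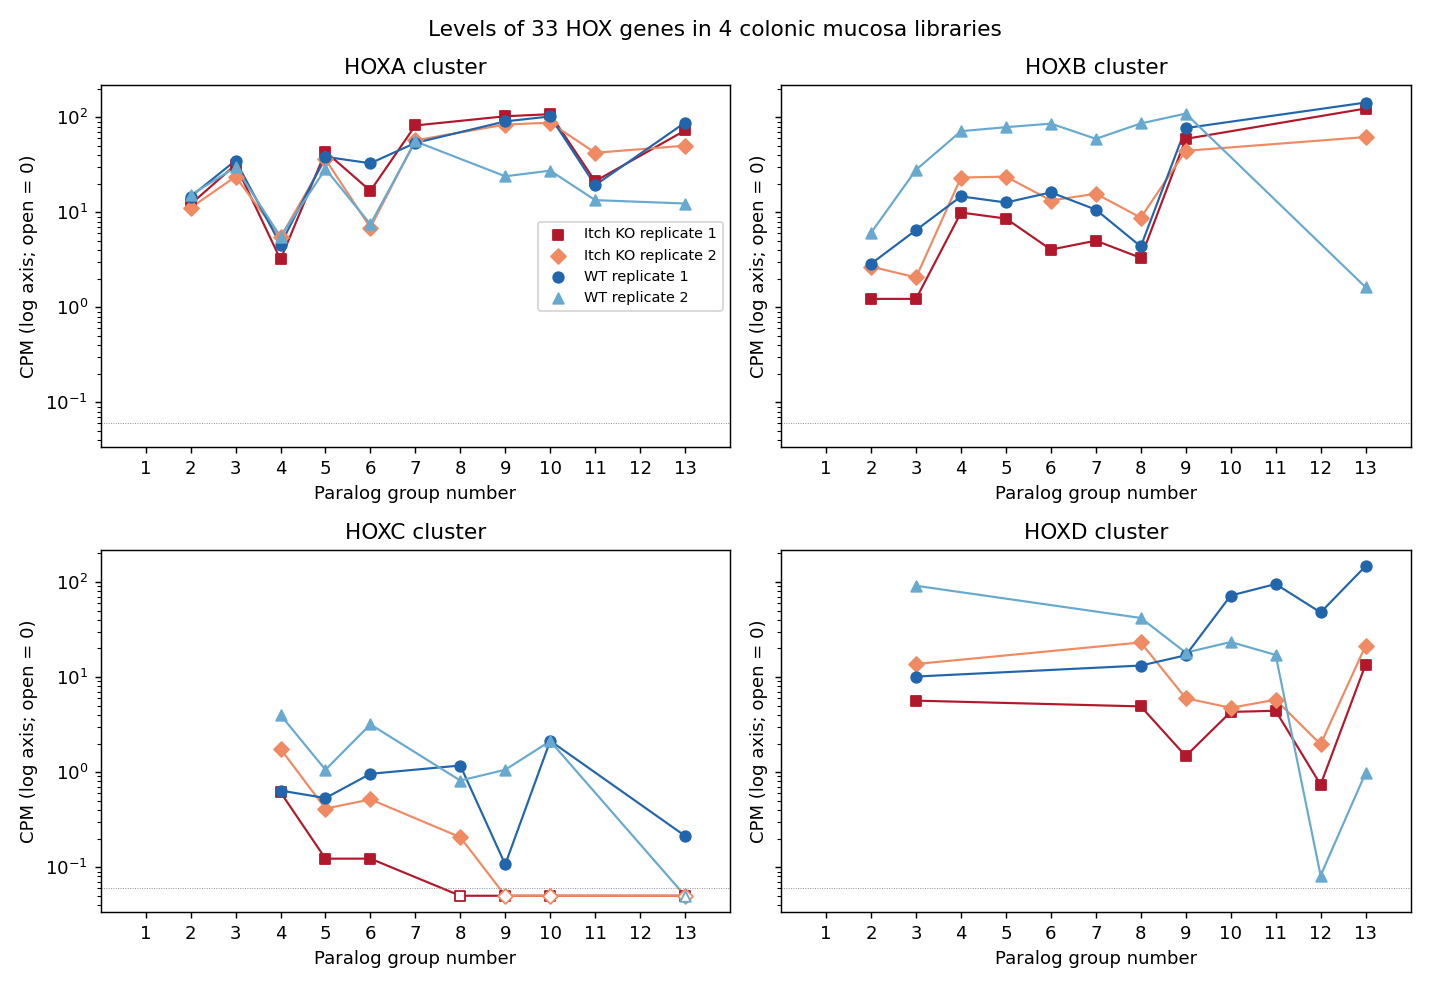
CPM on a log axis is plotted against paralog group number for 33 HOX genes by cluster, with Itch KO replicates in red and orange and WT replicates in dark and light blue; open symbols under the dotted line mark 0 counts. Both Itch KO libraries lie nearer to WT replicate 1 for Hoxa9, Hoxa10, Hoxa13 and Hoxb13, lie below WT replicate 2 for Hoxb3 to Hoxb8, and lie below both WT libraries for Hoxd9 to Hoxd11.

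Summed over clusters, HOXB and HOXD carried most of the difference between the WT libraries. The absolute differences in CPM between the 2 WT libraries added up to 1228 CPM over the 34 members. HOXB genes held 42.5% of it, HOXD genes 35.2%, HOXA genes 21.7% and HOXC genes 0.622%. The HOXA sum was 482 CPM in WT replicate 1 and 222 CPM in WT replicate 2, 2.17-fold higher in replicate 1 (2.07 to 2.27). The HOXD sum was 403 and 193 CPM, 2.09-fold higher in replicate 1 (1.98 to 2.20), and without Hoxd13 that log2 ratio of 1.06 came to 0.41. The HOXB sum ran the other way, with 288 and 527 CPM, 1.83-fold higher in replicate 2 (1.75 to 1.91). Cluster sums hid opposite movements within HOXB and HOXD. HOXD genes 10 to 13 summed to 362 CPM in WT replicate 1 and 41.6 CPM in WT replicate 2, whereas HOXB genes 5 to 9 summed to 121 and 420 CPM in the same libraries.

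By paralog group, the genes numbered 10 to 13 stood out as a class. All 9 of them with a ratio were higher in WT replicate 1, Hoxc10 by an amount within counting error. Their sum was 717 CPM in WT replicate 1 and 98.6 CPM in WT replicate 2 (7.27-fold, 6.84 to 7.74), or 60.9% and 10.3% of HOX counts. Paralog group 13 made up the largest share, with 378 and 15.0 CPM in WT replicates 1 and 2 (25.2-fold, 21.7 to 29.4) and 29.6% of the whole absolute difference. Group 11 summed to 115 and 30.6 CPM in the WT libraries, and group 10 to 176 and 53.0 CPM. Group 9 summed to 185 and 152 CPM, a near-even sum of members that went opposite ways. Hoxa9 was higher in WT replicate 1, Hoxb9 and Hoxc9 were higher in WT replicate 2, and Hoxd9 was level within counting error. Groups 3 to 8 were all higher in WT replicate 2, most of all group 8 at 18.8 CPM in WT replicate 1 and 129 CPM in WT replicate 2 (6.87-fold, 5.87 to 8.07), followed by group 4 at 19.95 and 81.0 CPM. Group 2 had an interval that included 1.

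**Figure D3:**
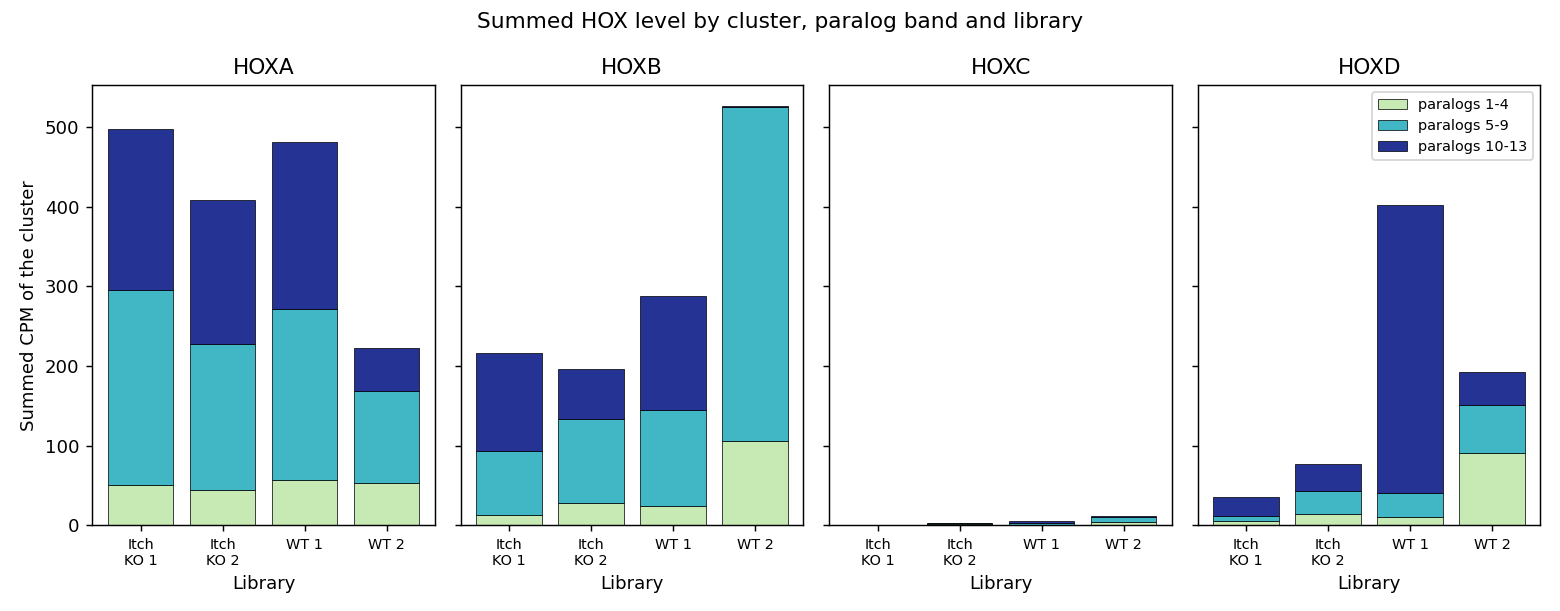
Stacked bars from 0 give the summed CPM of each HOX cluster in each library, split into paralog groups 1 to 4, 5 to 9 and 10 to 13. HOXD genes 10 to 13 sum to 362 CPM in the HOXD bar of WT replicate 1 and to at most 41.6 CPM in the other libraries, and HOXB genes 5 to 9 dominate the HOXB bar of WT replicate 2.

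The Itch KO libraries resembled neither WT library across all clusters. In HOXA their sums lay nearer to WT replicate 1, with 498 and 409 CPM in Itch KO against 482 and 222 CPM in WT. HOXB sums were 216 and 196 CPM in Itch KO, below the 288 and 527 CPM in WT, and HOXD sums were 35.0 and 76.7 CPM in Itch KO, below the 403 and 193 CPM in WT. HOXA genes thereby made up 66.4% and 59.7% of HOX counts in Itch KO and 40.9% and 23.3% in WT, and HOXD genes 4.67% and 11.2% in Itch KO and 34.2% and 20.2% in WT. HOXB genes made up 28.9% and 28.6% in Itch KO and 24.4% and 55.2% in WT. Over the 24 members with a mean of at least 5 CPM, the median absolute log2 difference between Itch KO replicate 1 and WT replicate 1 was 0.58, less than the 0.83 between the Itch KO libraries. Between the WT libraries it was 2.09, and the same measure over 14359 genes was 0.33, 0.25 and 0.23 for these 3 pairs. Over the 24 members Itch KO replicate 2 differed by 0.80 from WT replicate 1, and Itch KO replicates 1 and 2 differed by 2.46 and 1.69 from WT replicate 2. For the HOXA members alone, Itch KO replicate 1 differed by 0.18 from WT replicate 1 and by 0.65 from WT replicate 2. Itch KO replicate 2 was nearly as far from WT replicate 1 (0.38) as from WT replicate 2 (0.44). For the HOXB members alone, Itch KO replicates 1 and 2 differed by 0.55 and 0.84 from WT replicate 1 and by 3.90 and 2.29 from WT replicate 2. For the HOXD members alone they differed by 3.42 and 2.77 from WT replicate 1 and by 3.04 and 2.25 from WT replicate 2.

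Of the 34 members 29 passed the filter on low counts and were tested between genotypes; Hoxc5, Hoxc6, Hoxc8, Hoxc9 and Hoxc13 were not. By edgeR's quasi-likelihood test 0 members had an adjusted p below 0.05, as did 0% of the 16956 genes tested, and the members' adjusted p ranged from 0.129 to 0.916. At an unadjusted p below 0.05 edgeR had 6 members lower in Itch KO (Hoxb3, Hoxb9, Hoxc10, Hoxd9, Hoxd10 and Hoxd11), beside 9.52% of all tested genes, and 0 higher, beside 10.2%. Of these 6, Hoxc10 passed the filter on low counts through the WT libraries alone. Its adjusted p was the smallest of the members. DESeq2 called 4 members lower (Hoxb3, Hoxb6, Hoxd10 and Hoxd11), beside 4.76% of all tested genes, and 0 higher, beside 5.24%, and limma voom called 0. The median log2 fold change was -0.97 over the tested members and 0.01 over all tested genes. In 13 members both Itch KO libraries lay below both WT libraries, and in 3, among them Hoxa7 and Hoxa11, above. Those 13 include 9 of the 29 tested members, Hoxc10 among them. That share is near the 26% of all tested genes whose Itch KO libraries lay below, and 30% lay above. Leaving out Itch KO replicate 1, Itch KO replicate 2, WT replicate 1 and WT replicate 2 in turn left 2, 4, 12 and 4 members called by DESeq2. The 12 without WT replicate 1 were 7 lower (Hoxb3 to Hoxb8 and Hoxd3) and 5 higher (Hoxa9, Hoxa10, Hoxa13, Hoxb13 and Hoxd13), while Hoxd10 and Hoxd11 were among the called members in each of the other 3.

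**Figure D4:**
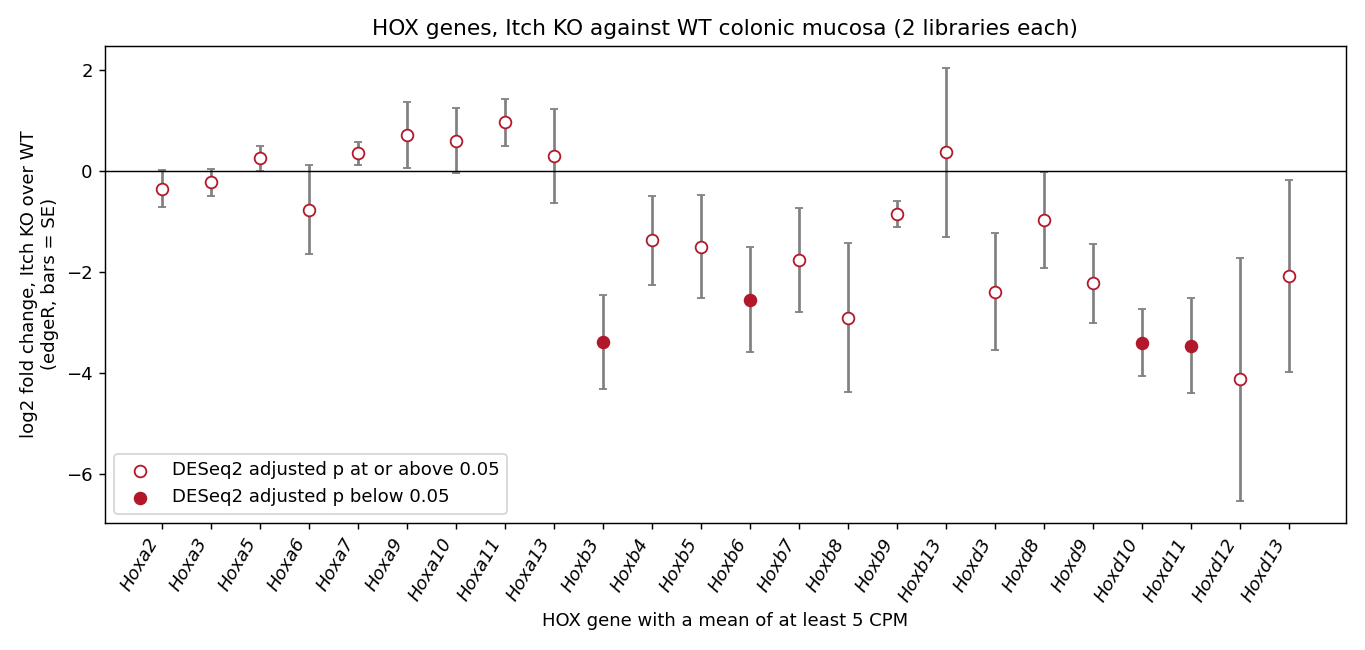
The log2 fold change of Itch KO over WT by edgeR, with its SE, is plotted for the 24 HOX genes whose mean was 5 CPM or more; filled points have a DESeq2 adjusted p below 0.05. HOXA genes lie between -0.76 and 0.96, and every HOXB and HOXD gene but Hoxb13 lies below 0.

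The central HOXD genes were low in both Itch KO libraries. Hoxd10 (ENSMUSG00000050368) stood at 4.30 and 4.75 CPM in Itch KO, against 72.1 and 23.4 CPM in WT. Its log2 fold change was -3.39 (SE 0.66, edgeR adjusted p = 0.131), and DESeq2 gave an adjusted p of 9.49e-06. The WT libraries differed from each other 3.08-fold, yet the lower of them was above both knockout libraries. Hoxd11 (ENSMUSG00000042499), which shapes the mouse forearm and kidney with Hoxa11, stood at 4.42 and 5.78 CPM in Itch KO, against 95.4 and 17.1 CPM in WT (log2 fold change -3.46, SE 0.93, edgeR adjusted p = 0.183, DESeq2 adjusted p = 0.000364). Hoxd9 stood at 1.47 and 5.99 CPM in Itch KO, against 17.0 and 18.1 CPM in WT (-2.22, SE 0.78, edgeR adjusted p = 0.241). For Hoxd9 the WT libraries agreed within counting error, so the groups were apart without any contrast between the WT libraries.

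For Hoxd12 and Hoxd13 the Itch KO libraries lay between the WT libraries. Hoxd13 stood at 13.52 and 21.4 CPM in Itch KO, against 147 and 0.978 CPM in WT, with a log2 fold change of -2.08 (SE 1.90, edgeR adjusted p = 0.568). Hoxd12 stood at 0.737 and 1.96 CPM in Itch KO, against 47.9 and 0.0815 CPM in WT (-4.12, SE 2.40, edgeR adjusted p = 0.398). The direction of both rested on WT replicate 1: without it the log2 fold changes were 4.16 for Hoxd13 and 3.89 for Hoxd12, and limma voom put Hoxd13 at 0.90. Hoxd8 stood at 4.91 and 23.1 CPM in Itch KO, against 13.2 and 41.9 CPM in WT (-0.97, SE 0.95). Hoxd3 stood at 5.65 and 13.7 CPM in Itch KO, against 10.1 and 91.4 CPM in WT (-2.39, SE 1.16, edgeR adjusted p = 0.335). For these 2 genes Itch KO replicate 1 was the lowest library and Itch KO replicate 2 exceeded WT replicate 1. Hoxd4 is not in the counted gene lists, and its M21 span lies within that of Hoxd3.

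Hoxb2 to Hoxb8 were lowest in Itch KO replicate 1, and Hoxb9 was lowest in Itch KO replicate 2. Hoxb3 stood at 1.23 and 2.07 CPM in Itch KO, against 6.51 and 28.0 CPM in WT (log2 fold change -3.38, SE 0.93, edgeR adjusted p = 0.186, DESeq2 adjusted p = 0.00558). Of its exon bases 52.9% are shared with the antisense gene Hoxb3os. The strand setting is not given, so reads there may have been set aside as ambiguous. The counts of Hoxb3 are uncertain to that extent. Hoxb6 stood at 4.06 and 13.3 CPM in Itch KO, against 16.2 and 85.8 CPM in WT (-2.55, SE 1.04, edgeR adjusted p = 0.281, DESeq2 adjusted p = 0.0352). These 2 had both knockout libraries below both WT libraries, as did Hoxb9 at 59.3 and 44.4 CPM in Itch KO and 77.0 and 109 CPM in WT (-0.85, SE 0.26, edgeR adjusted p = 0.205).

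For Hoxb4, Hoxb5, Hoxb7, Hoxb8 and Hoxb13 the groups overlapped. Hoxb4, which expands blood stem cells when overexpressed, stood at 9.95 and 23.2 CPM in Itch KO, against 14.7 and 71.5 CPM in WT. Hoxb5 stood at 8.60 and 23.8 CPM in Itch KO against 12.7 and 78.7 CPM in WT, and Hoxb7 at 5.04 and 15.7 CPM in Itch KO against 10.7 and 59.4 CPM in WT. Their log2 fold changes were -1.38 (SE 0.89), -1.50 (SE 1.02) and -1.75 (SE 1.03), with WT replicate 2 the highest library in each. Hoxb8 stood at 3.32 and 8.78 CPM in Itch KO, against 4.37 and 86.2 CPM in WT (-2.90, SE 1.48, edgeR adjusted p = 0.351). Without WT replicate 2 the log2 fold changes of Hoxb4, Hoxb5, Hoxb8 and Hoxd8 became 0.18, 0.35, 0.47 and 0.09. Hoxb13 stood at 124 and 62.0 CPM in Itch KO, against 143 and 1.63 CPM in WT (0.37, SE 1.68, edgeR adjusted p = 0.916), so that WT replicate 2 alone was low.

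The log2 fold changes of the 9 HOXA genes with a mean of 5 CPM or more lay between -0.76 and 0.96. Hoxa7 stood at 82.1 and 57.2 CPM in Itch KO, against 53.8 and 55.8 CPM in WT (log2 fold change 0.35, SE 0.22), and Hoxa11 at 21.3 and 42.3 CPM in Itch KO, against 19.3 and 13.4 CPM in WT (0.96, SE 0.46, edgeR adjusted p = 0.331). In both of these genes the knockout libraries lay above both WT libraries. Hoxa9, Hoxa10 and Hoxa13 stood at 103, 108 and 72.7 CPM in Itch KO replicate 1 and at 84.0, 87.8 and 50.3 CPM in Itch KO replicate 2. In each of these genes both knockout values were nearer, on a log scale, to WT replicate 1 than to WT replicate 2, the low library. Hoxa2, a hindbrain and second-arch gene, stood at 12.2 and 11.2 CPM in Itch KO, against 14.6 and 15.2 CPM in WT (-0.35, SE 0.37). Hoxa3 stood at 31.7 and 23.8 CPM in Itch KO against 35.1 and 29.9 CPM in WT, Hoxa5 at 43.5 and 36.1 CPM in Itch KO against 38.4 and 28.6 CPM in WT, and Hoxa4 at 3.20 and 5.47 CPM in Itch KO against 4.59 and 5.54 CPM in WT. Hoxa6 stood at 16.8 and 6.92 CPM in Itch KO, against 32.9 and 7.50 CPM in WT (-0.76, SE 0.89).

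The HOXC genes were at or near 0 in the Itch KO libraries. Hoxc10, a paralog of the gene pair Hoxa10 and Hoxd10, had 0 counts in both knockout libraries, against 20 and 26 counts (2.13 and 2.12 CPM) in the WT libraries. Relative to an upper limit of 3 counts over the knockout group, it was at least 12.6-fold lower in Itch KO, and its edgeR adjusted p was 0.129. It passed the filter on low counts through the WT libraries alone. Hoxc9 had 0 counts in both knockout libraries and 1 and 13 in the WT libraries. Against the pooled WT libraries it was at least 3.84-fold lower on the same limit, which allows for no counting error in the WT counts. That fold rested on WT replicate 2, as the 1 count of WT replicate 1 is under the limit of 3 counts. Hoxc8 had 0 and 2 counts in Itch KO against 11 and 10 in WT, Hoxc6 1 and 5 against 9 and 39, and Hoxc5 1 and 4 against 5 and 13. Each of these 5 genes had both knockout libraries below both WT libraries, as did 26% of all tested genes. Only Hoxc10 of the 5 was tested. The separation rested on 0 against 1 count for Hoxc9 and on 4 against 5 counts for Hoxc5. Hoxc4 at 0.614 and 1.76 CPM in Itch KO overlapped the WT libraries at 0.640 and 3.99 CPM. Hoxb2 stood at 1.23 and 2.69 CPM in Itch KO, against 2.88 and 6.11 CPM in WT. In the longer gene lists, Hoxc11 had 0 counts in both knockout libraries and 8 in WT replicate 2, Hoxd1 0 in both and 21 in WT replicate 2, and Hoxb1 and Hoxc12 0 in all 3.

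Some transcripts in or next to the clusters, 4 of 10 measured noncoding RNAs and 3 of 16 measured neighbours, were at least 4-fold apart between the WT libraries. Of all genes, 3.83% were at least 4-fold higher in WT replicate 1 and 3.65% in WT replicate 2. Hottip, a noncoding RNA at the posterior end of HOXA that is known from human cells to keep the posterior HOXA genes active, stood at 30.2 and 21.5 CPM in Itch KO, against 47.5 and 0.407 CPM in WT. Its ratio between the WT libraries was 117 (49.6 to 361), and its levels in the knockout libraries were nearer to those of WT replicate 1, as for Hoxa13. Hoxa11os stood at 33.7 and 26.8 CPM in Itch KO, against 36.7 and 6.93 CPM in WT. On the anterior side the order turned: Haglr, beside Hoxd3, stood at 0.614 and 0.930 CPM in Itch KO against 0.427 and 7.33 CPM in WT, and Hoxd3os1 at 0.614 and 1.86 CPM in Itch KO against 1.17 and 7.50 CPM in WT. Hoxb3os stood at 5.28 and 17.1 CPM in Itch KO against 16.5 and 41.4 CPM in WT, and Hoxb5os at 3.07 and 9.50 CPM in Itch KO against 8.54 and 15.4 CPM in WT. Of the 10 measured HOX-cluster noncoding RNAs, 2 were at least 4-fold higher in WT replicate 1 and 2 at least 4-fold higher in WT replicate 2, and edgeR and DESeq2 called 0 of the 9 tested, with 0 at an unadjusted edgeR p below 0.05. Hoxaas3 stood at 14.6 and 10.4 CPM in Itch KO against 15.7 and 26.4 CPM in WT, Mir196a-1 at 6.02 and 3.82 against 9.39 and 9.45, and Hotairm1 and Hoxaas2 under 4 CPM in every library.

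The homeobox genes Evx1 and Evx2, picked out after their values were seen, border Hoxa13 and Hoxd13. Evx1 stood at 21.6 and 18.3 CPM in Itch KO, against 13.2 and 0.0815 CPM in WT, where 1 count in WT replicate 2 gave a ratio of 162 (28.6 to 6463). Evx2 stood at 1.23 and 1.65 CPM in Itch KO, against 40.3 and 0.163 CPM in WT, where 2 counts in WT replicate 2 gave a ratio of 247 (68.0 to 2051). Evx1 was thus high in all libraries but WT replicate 2, as were Hoxa13 and Hoxb13, and Evx2 was high in WT replicate 1, as was Hoxd12. They and Calcoco2 (15 and 2 counts) were the 3 of 16 measured neighbours at least 4-fold higher in WT replicate 1. Tax1bp1, Cbx5 and Skap2, the neighbours with the highest levels, differed by at most 1.30-fold between the WT libraries. Of 15 neighbours tested DESeq2 called Snx10 higher and Ttll6 lower in Itch KO, beside 5.24% and 4.76% of all tested genes, and edgeR called 0.

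**Figure D5:**
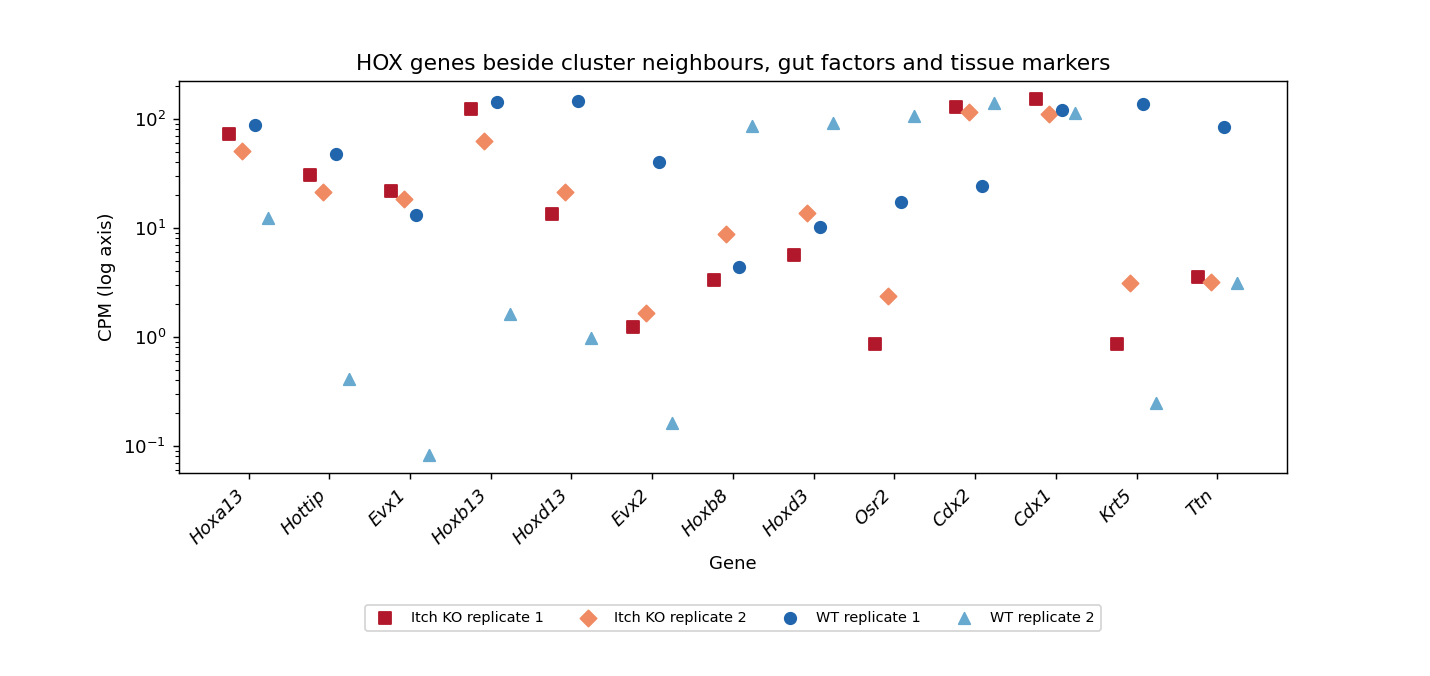
CPM on a log axis is plotted for 5 HOX genes, neighbours of their clusters (Hottip, Evx1, Evx2), gut transcription factors (Osr2, Cdx2, Cdx1) and markers of squamous epithelium (Krt5) and skeletal muscle (Ttn), with Itch KO replicates left of WT replicates. WT replicate 2 is the lowest library for Hoxa13, Hottip, Evx1 and Hoxb13, and WT replicate 1 is the highest for Hoxd13, Evx2, Krt5 and Ttn and the lowest for Cdx2.

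Factors known to set or read the HOX code were compared beside the members, and edgeR called 0 of them at its adjusted threshold. Cdx2, a caudal-type homeobox factor that acts upstream of HOX genes in the embryo and maintains the intestinal lining, stood at 130 and 115 CPM in Itch KO, against 24.3 and 140 CPM in WT. Its level was 5.74-fold higher in WT replicate 2 than in WT replicate 1 (4.999 to 6.62), and Isx, an intestinal homeobox gene, at 98.7 and 65.6 CPM in Itch KO and 20.7 and 149 CPM in WT, was likewise low in WT replicate 1. Cdx1 was nearly level at 152 and 111 CPM in Itch KO and 121 and 113 CPM in WT. Osr2, an odd-skipped zinc finger factor, stood at 0.860 and 2.38 CPM in Itch KO, against 17.4 and 105 CPM in WT. Of the 15 gut factors tested DESeq2 called Osr2 alone, as lower in Itch KO. Of all tested genes DESeq2 called 4.76% lower and 5.24% higher. At an unadjusted p below 0.05 edgeR had 1 of the 15 higher and 2 lower, beside 10.2% and 9.52% of all tested genes. Gata5 stood at 1.23 and 1.65 CPM in Itch KO, against 2.03 and 20.05 CPM in WT.

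The TALE cofactors, with which HOX proteins bind DNA, had 0 of 9 members called by DESeq2 and 0 at least 4-fold apart between the WT libraries. At an unadjusted p below 0.05 edgeR had 1 of the 9 lower, beside 9.52% of all tested genes. Meis1 stood at 11.3 and 39.7 CPM in Itch KO, against 62.6 and 37.0 CPM in WT. Among 30 Trithorax and Polycomb regulators, which hold HOX genes on or off, DESeq2 called 5 lower in Itch KO (Kmt2a, Kmt2b, Phc3, Kdm6a and Kat6a) and 0 higher. Of all tested genes it called 4.76% lower and 5.24% higher. At an unadjusted p below 0.05 edgeR had 8 of the 30 lower and 2 higher, beside 9.52% and 10.2% of all tested genes. Kmt2a, the histone methyltransferase that sustains HOX expression, stood at 122 and 119 CPM in Itch KO, against 224 and 210.0 CPM in WT. All 30 differed by less than 4-fold between the WT libraries. Of 17 tested genes listed as acting upstream of HOX clusters, mostly of the retinoic acid and GDF11 signals, DESeq2 called Lin28a alone, as higher in Itch KO. At an unadjusted p below 0.05 edgeR had 2 of the 17 higher and 1 lower, beside 10.2% and 9.52% of all tested genes. No FGF gene of the list was measured, and its only measured Wnt gene, Wnt3a, was not tested.

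Markers of other tissues and of gut position also differed between the WT libraries. Of 27 squamous epithelium markers, 22 were at least 4-fold higher in WT replicate 1 than in WT replicate 2, beside 3.83% of all genes. The summed level of the 27 markers was 572 and 439 CPM in Itch KO, against 2039 and 458 CPM in WT. Flg, Sprr1b, Sprr3 and Dsg1a were at 0 counts in both knockout libraries. Much of the level in the other libraries came from Dsc2, at 261 and 181 CPM in Itch KO and 246 and 227 CPM in WT, whereas Krt5, a basal keratin picked out after its values were seen, stood at 0.860 and 3.10 CPM in Itch KO and 138 and 0.244 CPM in WT. Of 17 measured skeletal muscle markers, 11 were at least 4-fold higher in WT replicate 1, with sums of 207 and 237 CPM in Itch KO against 739 and 221 CPM in WT, and Myh4 was at 0 in both knockout libraries. These lists were high in the library that was high in Hoxd10 to Hoxd13, and their part in that result was not tested. Squamous markers were unlike each other in the Itch KO libraries, where Krt5 was at most 3.10 CPM. Krt13 and Sprr1a, also picked out after their values were seen, were higher there than in WT replicate 2. Krt13 stood at 11.3 and 16.7 CPM in Itch KO against 0.815 CPM in WT replicate 2, and Sprr1a at 41.4 and 46.0 CPM against 14.1 CPM. Hoxa13 was at least 50.3 CPM and Hoxb13 at least 62.0 CPM in the Itch KO libraries, and the part of squamous tissue in these levels was not tested.

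The 13 measured ileum and small intestine markers summed to 169 and 138 CPM in Itch KO, against 268 and 721 CPM in WT. Of the 11 with a ratio, 5 were at least 4-fold higher in WT replicate 2 and 1 in WT replicate 1, beside 3.65% and 3.83% of all genes. Distal colon and rectum markers summed to 1252 and 787 CPM in Itch KO, against 1547 and 985 CPM in WT, with 4 of 14 at least 4-fold higher in WT replicate 1 and 0 in WT replicate 2. Proximal colon and caecum markers summed to 1045 and 772 CPM in Itch KO, against 1118 and 1108 CPM in WT. The even WT sums hid opposite differences, as 2 of 13 were at least 4-fold higher in WT replicate 1 and 3 in WT replicate 2. The part of sampling position in the HOX differences was not tested. Colon epithelium markers were present at like sums in all libraries, with 3078 and 2298 CPM in Itch KO and 2944 and 2300 CPM in WT, and 0 of 15 were 4-fold apart between the WT libraries. Smooth muscle markers summed to 1495 and 1965 CPM in Itch KO against 3258 and 2046 CPM in WT, fibroblast and matrix markers to 2358 and 3454 CPM against 3231 and 1961 CPM, and enteric neuron and glia markers to 426 and 712 CPM against 379 and 551 CPM. Markers of kidney, bladder and reproductive tissue summed to 92.8 and 99.8 CPM in Itch KO and 121 and 112 CPM in WT. Lymphoid and myeloid markers summed to 1365 and 1739 CPM in Itch KO against 600 and 420 CPM in WT. DESeq2 called 9 of these 18 markers higher in Itch KO and 0 lower, beside 5.24% and 4.76% of all tested genes. Of the markers tested it called lower 3 of 9 for ileum, 4 of 13 for smooth muscle and 3 of 13 for skeletal muscle. It also called lower 3 of 16 squamous and 3 of 13 proximal colon markers. Called higher were 2 of 16 enteric, 1 of 13 proximal colon and 1 of 14 distal colon markers. The sums of the lymphoid and myeloid markers were higher in both knockout libraries, as HOXB, HOXC and HOXD sums were lower there. The part of these markers in that was not tested.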

How the data were processed

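RNA-seq counts of mouse colonic mucosa were available for 2 Itch KO and 2 WT libraries. Each file deposited by the authors holds raw counts of 1 library, per the file headers. Software listed in the submitters' processing notes was HTSeq 0.6.1, SAMtools 0.1.19, TopHat2 and CASAVA 1.8.2, and the builds listed were GRCm38 and mm10. Whether counting used strand or removed duplicates is not given there. The file of WT replicate 1 lists 19308 genes and no summary lines, and the others 39179 genes. Reads in no feature made up 18.2% to 23.0% of the total in those 3 files and ambiguous reads 2.67% to 3.03%, and neither entered library sizes or tests.

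Genotypes were compared with edgeR 4.0.16 (R 4.3.3) by the quasi-likelihood test with TMM factors, filterByExpr at a minimum count of 10, robust estimation, Benjamini-Hochberg adjustment over all 16956 tested genes and a two-sided threshold of 0.05. The SE is the log2 fold change divided by the square root of F. The biological coefficient of variation was 34.8% on 2 residual degrees of freedom. DESeq2 1.42.0 and limma voom (limma 3.58.1) were alternatives, as were other scalings, filters, a replicate block and each library left out, and DESeq2 with each library left out was added after its calls were seen. The scripts were tested on simulated counts. WT libraries were compared by ratios of scaled counts with 95% exact intervals (scipy 1.17.1). Levels of the members are given, with fold changes from a mean of 5 CPM. Of each context list, up to 3 genes with the highest mean level were named, with all measured TALE, Cdx and noncoding genes eligible, and any other gene was picked with its values known. The members and lists were chosen with earlier results of these data known. Exon lengths and overlaps come from GENCODE M21. At most 1.44% of a member's 50-base words occur in a gene that does not overlap it (Hoxc9, with Hoxb6 and Hoxb9). Some genes, 1 HOX gene among them, are not reported here, although counts and sums include them.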

Additional observations from a re-analysis of the deposited data

How the results depend on the processing

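No genotype call was made by edgeR in any alternative: the number of genes called was 0 under RLE, upper quartile and total-count scaling, with no filter, with a mean of at least 5 CPM, with the replicate block and without each library in turn, and 0 by limma voom. DESeq2 called 1696 genes, 4 of them HOX genes, and 2 to 12 HOX genes when a library was left out. The number of HOX genes with both Itch KO libraries below the WT libraries was 15 to 21 without a library in place of 13, and above them 3 to 10 in place of 3, as fewer libraries overlap less. Of 288 alternative log2 fold changes of the 24 HOX genes, 271 kept their direction and side of the threshold, 4 passed it under DESeq2 (Hoxb3 -3.41, Hoxb6 -2.57, Hoxd10 -3.43, Hoxd11 -3.49) and 13 changed sign, 11 of them with a library left out; 14 genes never changed sign. Hoxd13 changed sign under limma voom (0.90), with the replicate block (0.12) and without WT replicate 1. The lowest and highest values over left-out libraries were -1.54 and 0.68 for Hoxa6, -0.069 and 1.85 for Hoxa10, -0.52 and 2.33 for Hoxa13, -2.10 and 0.18 for Hoxb4, -2.40 and 0.35 for Hoxb5, -3.80 and 0.47 for Hoxb8, -0.63 and 5.84 for Hoxb13, -2.48 and 0.092 for Hoxd8, -5.12 and 3.89 for Hoxd12 and -3.07 and 4.16 for Hoxd13. Without the member with the most counts the log2 ratio of WT replicate 1 to WT replicate 2 was 0.96 for HOXA (1.12 with it), -0.98 for HOXB (-0.87) and 0.41 for HOXD (1.06), and the mean of per-kb levels gave 1.31 for HOXD. The number of HOX genes at least 4-fold apart between the WT libraries was 15 under every scaling and 14 at a minimum of 30 counts.

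The replicate numbers are only names in the labels, which state no pairing. Over all tested genes, deviations of same-numbered libraries from their group means had a correlation of 0.05. A value over all genes cannot exclude a pairing that shows in HOX genes alone. The block lowered the SE of some members (Hoxb6, 0.33 with it and 1.04 without) and raised that of others (Hoxd12, 4.75 and 2.40). With the block, edgeR called 0 genes and the log2 fold changes of Hoxd10 and Hoxd11 were -3.18 and -2.98. With 2 libraries per group and 2 residual degrees of freedom, small differences could not be detected, and HOXC genes rest on few counts.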
